A study of Mus musculus with 16 samples.

Results

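Skeletal muscle fibres couple electrical excitation to contraction through a small set of calcium handling proteins, and the RNA of 10 genes for such proteins was followed here in C2C12 cells, a mouse skeletal myoblast line. The 10 genes, of 24497 measured, were chosen by their function: the release channels Ryr1 and Ryr3, the voltage sensor subunits Cacna1s, Cacnb1 and Cacng1, the adaptor Stac3, the junction protein Jph2, the calcium buffer Casq2, and the calcium pumps Atp2a1 and Atp2a2. Earlier results of these data were known when they were chosen, so their shares beside those of all genes are descriptions, not tests of the set. Poly(A) RNA was sequenced from 16 libraries in 8 groups of 2. C2C12 cells carried either the wild type (WT) genotype or MYOD-/-, a deletion made by CRISPR-Cas9 followed by screening of single cells, in the gene of the myogenic transcription factor MyoD. Each genotype was transfected (stably in WT cells, while the labels do not say so for MYOD-/-) with a control vector (EV) or with a vector coding for spliced MUNC, a long noncoding RNA transcribed upstream of Myod1, and each of these 4 lines was sampled while proliferating (GM, growth medium) and while differentiating (DM, differentiation medium). The comparisons ask how differentiation, the genotype label and the MUNC vector go with the level of each gene. The labels do not state whether the MYOD-/- cells descend from 1 clone. The labels do not say that the 2 replicates of a group were separate cultures, so each p-value reflects the spread between these libraries alone, and that spread may be technical.

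In a muscle fibre the action potential runs into the transverse tubules, where a voltage-gated calcium channel senses it and mechanically opens the ryanodine receptor in the facing membrane of the sarcoplasmic reticulum. Calcium stored on calsequestrin is released, the myofilaments contract, and SERCA pumps return the calcium to the store. Cultured myoblasts build most of this machinery as they differentiate into myotubes.

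The libraries held between 35.8 M and 108 M estimated counts, with a median of 61.2 M. The targeted gene went against its label. Myod1 was at 0.0136 to 0.291 CPM (counts relative to the scaled library total) in the 4 WT-labelled EV libraries and at 11.9 to 33.1 CPM in the 4 EV libraries labelled MYOD-/-. With MUNC the labels lay closer, at 1.70 to 4.06 CPM in the WT-labelled libraries and 4.18 to 16.01 CPM in those labelled MYOD-/-. In the WT-labelled lines Myod1 was thus higher with MUNC than with EV, and its part in the comparisons of the vector below was not tested. The sources used here do not give the deleted part, and a transcript could remain in the libraries labelled MYOD-/-. The cause of these levels, including the low one in the WT-labelled EV libraries, was not tested. Groups are named below by their label, WT-labelled or knockout-labelled, and every direction drawn from the genotype below is that of the labels. MUNC, counted as Gm45923, was at 1821 to 2670 CPM in the WT-labelled MUNC libraries, at 43.0 to 132 CPM in the knockout-labelled ones, and at 1.15 to 12.4 CPM in the EV libraries. Myog, a transcription factor of muscle differentiation, was at or below 0.473 CPM in all 8 GM libraries. In DM it was at 1.16 and 0.733 CPM in the WT-labelled EV line, 7.91 and 8.14 in the WT-labelled MUNC line, 22.0 and 24.2 in the knockout-labelled EV line and 33.7 and 27.0 in the knockout-labelled MUNC line. Over 12 skeletal muscle markers the summed level in DM was 147 to 199 CPM, 207 to 261 CPM, 653 to 716 CPM and 785 to 888 CPM in the same order of lines, against 127 to 208 CPM in GM. The extent of differentiation by these markers thus moved with the line, and its part in the DM differences below was not tested. In DM, markers of other cell types moved with the line too. The 8 smooth muscle markers, of which Des also belongs to skeletal muscle, summed to 314 to 407 CPM in the WT-labelled EV DM libraries, 1228 to 1404 CPM in the WT-labelled MUNC ones and 1916 to 2277 CPM in the knockout-labelled ones. In GM the order differed. The sums were 1645 to 1710 CPM (EV) and 1262 to 2452 CPM (MUNC) in the WT-labelled lines. In the knockout-labelled lines they were 836 to 1004 CPM (EV) and 379 to 1098 CPM (MUNC). The 6 endothelial markers summed to at most 1.06 CPM in the WT-labelled libraries and to 4.42 to 15.97 CPM in the knockout-labelled DM libraries, most of it Tek, and the 8 neural markers to 6.09 to 29.4 CPM in the WT-labelled DM libraries and 205 to 389 CPM in the knockout-labelled ones. In GM the neural sums were 165 to 169 CPM (EV) and 34.4 to 58.5 CPM (MUNC) in the WT-labelled lines. In the knockout-labelled lines they were 142 to 307 CPM (EV) and 175 to 458 CPM (MUNC). Each neural sum came from few genes. Of the 8 neural markers, 6 were under 1 CPM in both libraries of every group except WT-labelled MUNC in DM, where 5 were. The 8 fibroblast or progenitor markers, led by Col3a1, moved with the medium, at 855 to 4853 CPM in the GM libraries and 5715 to 12612 CPM in the DM libraries, highest in the WT-labelled MUNC line in DM (10744 and 12612 CPM). The part of these in the results was not tested. The 6 leukocyte markers summed to at most 2.10 CPM in every library. In bulk RNA, fewer cells that express a gene and less of its RNA per cell cannot be told apart. The gene Zrsr1 separated the replicate numbers, at 72.9 to 326 CPM in the replicate 1 libraries and 14626 to 146925 CPM in the replicate 2 libraries, and both numbers occur in every group. All 47 differences called below between 2 groups had the same sign within replicate 1 and within replicate 2. This was nearly fixed in advance, since they were chosen for passing the test in these libraries.

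Promoter windows are shown for 4 members that were higher in DM in 2 or more of the lines, since the RNA of MyoD and myogenin, which can bind the E-box CANNTG, differed between the lines. Each window is the 250 bases before a RefSeq start (GRCm38.p6), read 5′ to 3′ on the gene's strand, with CANNTG in capitals, which reads the same on both strands.
Ryr1, chr7:29125152-29125401, minus strand: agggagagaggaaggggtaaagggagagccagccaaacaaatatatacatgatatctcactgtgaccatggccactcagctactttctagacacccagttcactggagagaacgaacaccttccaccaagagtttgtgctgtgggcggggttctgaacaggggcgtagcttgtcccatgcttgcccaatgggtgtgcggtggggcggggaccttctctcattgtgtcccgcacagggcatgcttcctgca
Cacna1s, chr1:136052561-136052810, plus strand: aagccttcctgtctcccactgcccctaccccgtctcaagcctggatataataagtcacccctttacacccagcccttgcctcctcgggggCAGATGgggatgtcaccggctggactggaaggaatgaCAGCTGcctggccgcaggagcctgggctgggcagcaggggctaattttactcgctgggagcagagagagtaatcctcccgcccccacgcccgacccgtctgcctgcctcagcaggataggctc
Casq2, chr3:102086165-102086414, plus strand: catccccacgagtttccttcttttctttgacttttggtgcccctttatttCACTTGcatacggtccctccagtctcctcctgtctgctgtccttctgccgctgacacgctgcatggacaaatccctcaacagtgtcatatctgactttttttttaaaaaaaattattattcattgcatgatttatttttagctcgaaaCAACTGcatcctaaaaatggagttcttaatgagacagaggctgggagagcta
Atp2a1, chr7:126463074-126463323, minus strand: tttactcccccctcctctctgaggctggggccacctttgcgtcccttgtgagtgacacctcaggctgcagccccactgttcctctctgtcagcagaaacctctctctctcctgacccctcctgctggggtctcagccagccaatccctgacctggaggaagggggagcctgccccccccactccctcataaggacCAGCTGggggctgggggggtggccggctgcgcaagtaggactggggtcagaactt
The Ryr1 window holds none of these sites. The Cacna1s window holds 2, starting 160 and 123 bases before the start of transcription, the second of them with the letters CAGCTG. The Casq2 window holds 2, at 200 and 52 bases, and the Atp2a1 window holds 1, at 55 bases, which has the same letters as the second site of Cacna1s. Windows were found for 6 of the 10 members, with 8 starts in all. Both Jph2 windows hold 1 site, again with those letters, and 1 of the 2 Cacnb1 windows holds 1. Of 32817 promoter windows of this length, 66.2% hold at least 1 E-box of any kind and 13% hold the form CAGCTG. Another form, CACCTG, searched on both strands, was in 17.2% of the windows and in none of the members'. For MEF2 only a strict form of its site was searched, and it was in 0.509% of the windows and in none of the members'. Looser forms were not counted, so a window without the strict form, such as that of Casq2, can hold a looser one. All sites named here are matches of letters, and binding was not measured.

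The 10 genes differed widely in level. Per length, in TPM (transcript abundance relative to all transcripts), Atp2a2 led in both media, with a median of 235.5 TPM over the GM libraries and 180 TPM over the DM libraries, and it made up 50.7% to 95.8% of the members' summed TPM. In GM the medians of Cacng1 (18.4 TPM), Jph2 (6.28), Cacnb1 (1.69), Casq2 (1.34) and Stac3 (0.555) followed, and Atp2a1 (0.114), Ryr1 (0.0445), Ryr3 (0.0031) and Cacna1s (0) were lowest. In DM the medians of Atp2a1 (11.9 TPM), Casq2 (7.00), Ryr1 (1.51) and Cacna1s (0.415) were higher than in GM, while the top 3 places were again held by Atp2a2, Cacng1 (18.8) and Jph2 (17.8).

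Moving from GM to DM, 4 to 7 of the 9 tested members rose per line, fewest in the WT-labelled EV line, and Atp2a2 fell in each of the 4 lines. A change was called where the adjusted p of edgeR's quasi-likelihood test, with Benjamini-Hochberg adjustment over 14972 genes, was under 0.05. Ryr3 did not pass the filter on low counts, so 9 members were tested. In the WT-labelled EV line 4 members rose and 2 fell, where 37.5% of all tested genes were called (19.2% higher and 18.3% lower). The WT-labelled MUNC line had 5 members higher and 1 lower, where 39.8% of genes were called (20.5% and 19.2%). The knockout-labelled EV line had 6 members higher and 1 lower, where 43.2% of genes were called (23.5% and 19.7%), and the knockout-labelled MUNC line had 7 higher and 1 lower, where 44.8% were called (24.4% and 20.4%). The median log2 fold change of the 9 tested members was 0.52 in the WT-labelled EV line, 1.39 in the WT-labelled MUNC line, 2.93 in the knockout-labelled EV line and 2.38 in the knockout-labelled MUNC line, and the median of all tested genes in these comparisons lay between 0.02 and 0.08. Without WT-labelled EV GM replicate 2 or DM replicate 1 the WT-labelled EV line had 4 members called, and without WT-labelled MUNC GM replicate 2 the WT-labelled MUNC line had 4.

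**Figure D1:**
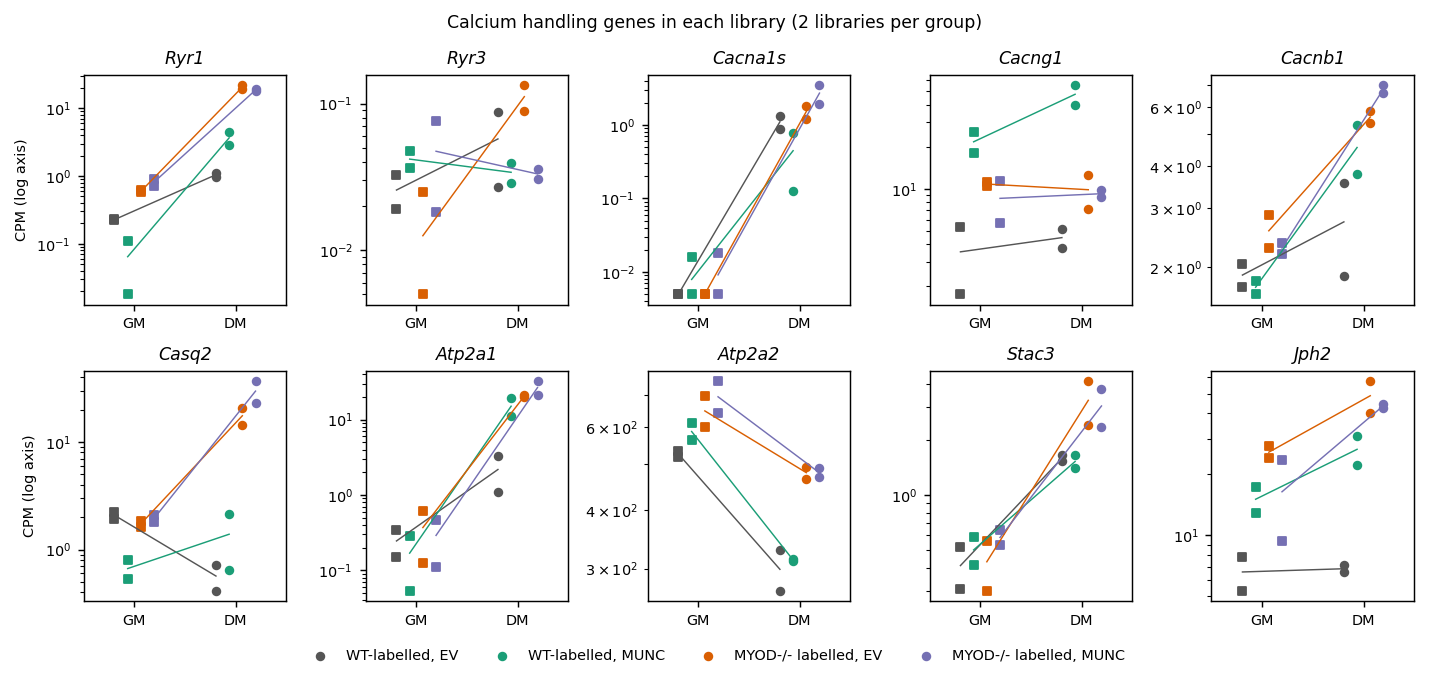
Level of each of the 10 genes in every library, in CPM on a log axis, with squares for GM, circles for DM, colours for the 4 lines and lines between the group means; values of 0 are drawn at 0.005 CPM. Ryr1, Cacna1s and Atp2a1 lie higher in DM in every line, Atp2a2 lies lower, and Casq2 separates the knockout-labelled DM libraries from all others.

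Ryr1, the release channel of skeletal muscle sarcoplasmic reticulum, rose in all 4 lines, by the smallest amount in the WT-labelled EV line. Its 2 GM libraries held 0.226 and 0.229 CPM in that line and its 2 DM libraries 1.12 and 0.977 CPM, a log2 fold change of 2.19 ± 0.37 (SE; adjusted p = 0.000892). In the WT-labelled MUNC line the values were 0.111 and 0.0181 CPM in GM and 4.44 and 2.90 CPM in DM, a log2 fold change of 5.73 ± 0.43 (adjusted p = 1.48e-05). This was the lowest GM group and an intermediate DM group, and the fold moved from 4.96 to 7.51 when GM replicate 2 or GM replicate 1 was left out. The knockout-labelled lines were higher in both media. The EV line went from 0.616 and 0.576 to 19.1 and 22.2 CPM (log2 fold change 5.11 ± 0.36, adjusted p = 5.06e-06), and the MUNC line from 0.718 and 0.913 to 17.8 and 19.6 CPM (log2 fold change 4.52 ± 0.34, adjusted p = 7.64e-06). Ordered by mean CPM, the knockout-labelled DM groups, which overlapped each other, stood above the WT-labelled MUNC and then the WT-labelled EV DM groups, and no other neighbouring groups in the order overlapped. Ryr1 is a single RefSeq transcript in these tables (gene at chr7:29003340-29125179). In the WT-labelled EV line the call was lost when TPM + 1 was tested with limma (adjusted p = 0.177), a scale on which a gene this low changes little.

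Ryr3, the second ryanodine receptor, found in some muscles beside Ryr1, was close to the limit of detection. It held 0 to 8 counts per library, or 0 to 0.134 CPM, the highest values being those of the knockout-labelled EV DM libraries (0.134 and 0.0892 CPM). Tested without a filter it passed in no comparison (lowest adjusted p = 0.0939, knockout-labelled EV line, DM against GM), so a change of Ryr3 was not detectable at this depth. The ratio of Ryr1 to Ryr3 in TPM was 0.50 to 581 over the libraries where Ryr3 was above 0, and it was under 1 in WT-labelled MUNC GM replicate 2 alone.

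Cacna1s, the voltage-sensing pore subunit, was nearly absent in GM and present in DM. All GM libraries together held 2 counts, 1 in each MUNC line. In DM the levels were 1.32 and 0.882 CPM in the WT-labelled EV line, 0.766 and 0.124 CPM in the WT-labelled MUNC line, 1.82 and 1.21 CPM in the knockout-labelled EV line and 3.48 and 1.92 CPM in the knockout-labelled MUNC line. Every DM library stood above every GM library. Against a floor of 3 counts over the GM group, the DM level was at least 42.7-fold higher in the WT-labelled EV line (185 counts against 0) and at least 38.8-fold higher in the knockout-labelled EV line (163 counts against 0). In the MUNC lines the ratio was 39.6 for the WT-labelled (52 counts against 1, 95% interval 6.81 to 1596) and 313 for the knockout-labelled (389 against 1, 55.8 to 12383). These floors and exact binomial intervals cover counting error only. The rise was called in all 4 lines by edgeR's quasi-likelihood test, with adjusted p = 0.00186, 0.00166, 0.0105 and 0.000686 in the order WT-labelled EV, knockout-labelled EV, WT-labelled MUNC and knockout-labelled MUNC. The third of these was 0.0669 without WT-labelled MUNC GM replicate 2.

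Cacnb1, the intracellular beta subunit that holds the channel at the junction, rose in 3 lines by less than Ryr1. The WT-labelled EV line held 1.75 and 2.04 CPM in GM and 1.89 and 3.57 CPM in DM, and the groups overlapped (log2 difference 0.52 ± 0.29, adjusted p = 0.173). The other 3 lines had DM libraries above all of their GM libraries, at 3.79 and 5.30 CPM against 1.82 and 1.66 CPM (WT-labelled MUNC), 5.37 and 5.83 against 2.27 and 2.86 CPM (knockout-labelled EV) and 6.98 and 6.60 against 2.37 and 2.19 CPM (knockout-labelled MUNC). The log2 fold changes were 1.39 ± 0.29 (adjusted p = 0.00305), 1.12 ± 0.29 (adjusted p = 0.00860) and 1.57 ± 0.29 (adjusted p = 0.00123). Without knockout-labelled EV GM replicate 1 the middle one had adjusted p = 0.0580.

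Cacng1, the gamma subunit of the muscle channel, passed the test for differentiation in none of the lines. Its log2 differences were 0.33 ± 0.47 (adjusted p = 0.619) in the WT-labelled EV line, 1.13 ± 0.46 (adjusted p = 0.0712) in the WT-labelled MUNC line, -0.13 ± 0.46 (adjusted p = 0.839) in the knockout-labelled EV line and 0.11 ± 0.46 (adjusted p = 0.872) in the knockout-labelled MUNC line. The WT-labelled MUNC libraries were the highest, with 25.4 and 18.1 CPM in GM and 39.8 and 55.7 CPM in DM, so that both DM libraries lay above both GM libraries. The WT-labelled EV libraries lay between 1.75 and 5.30 CPM and the 8 knockout-labelled libraries between 5.70 and 12.5 CPM, so these 3 ranges did not overlap.

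Stac3, the adaptor that links the voltage sensor to its release channel, rose in all 4 lines. Its GM libraries lay between 0.301 and 0.641 CPM. In DM it was at 1.64 and 1.52 CPM in the WT-labelled EV line, 1.39 and 1.65 in the WT-labelled MUNC line, 2.40 and 4.16 in the knockout-labelled EV line and 2.35 and 3.76 in the knockout-labelled MUNC line. Every DM library exceeded every GM library. The log2 fold changes, in the same order, were 1.93 ± 0.41 (adjusted p = 0.00360), 1.60 ± 0.40 (adjusted p = 0.00868), 2.93 ± 0.43 (adjusted p = 0.000311) and 2.38 ± 0.40 (adjusted p = 0.000775). The call in the WT-labelled MUNC line was lost without GM replicate 2 (adjusted p = 0.0791).

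Jph2, a junctophilin that ties the sarcoplasmic reticulum to the surface membrane, changed with differentiation by the test in the knockout-labelled MUNC line alone of the 4, and whether the lines differ in this did not pass the test described below. There it went from 23.4 and 9.35 CPM in GM to 42.7 and 44.5 CPM in DM (log2 fold change 1.41 ± 0.37, adjusted p = 0.00903), and by 2.22 without GM replicate 1, which was the higher of its GM libraries. When only the libraries of this comparison were fitted the adjusted p was 0.0648. The knockout-labelled EV line went from 23.9 and 27.4 to 40.1 and 57.4 CPM (0.93 ± 0.36, adjusted p = 0.0587) and the WT-labelled MUNC line from 12.9 and 17.2 to 22.1 and 31.0 CPM (0.82 ± 0.36, adjusted p = 0.0944). The DM libraries of both lines lay above their GM libraries. The WT-labelled EV libraries were the lowest in both media, at 7.84 and 5.34 CPM and 7.11 and 6.57 CPM, and overlapped (log2 difference 0.05 ± 0.37, adjusted p = 0.929).

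Casq2, the calsequestrin best known from heart and also present in developing and slow skeletal muscle, moved in opposite directions in different lines. In the knockout-labelled EV line it rose from 1.85 and 1.63 CPM in GM to 20.8 and 14.4 CPM in DM (log2 fold change 3.34 ± 0.50, adjusted p = 0.000347). The knockout-labelled MUNC line rose from 2.09 and 1.81 CPM to 36.6 and 22.9 CPM (3.93 ± 0.50, adjusted p = 0.000133). In the WT-labelled EV line it fell from 1.94 and 2.23 CPM to 0.417 and 0.719 CPM, a log2 fold change of -1.88 ± 0.50 (adjusted p = 0.0116). That fall kept its direction but lost its call without GM replicate 2 (adjusted p = 0.0516) or DM replicate 1 (0.0984), and with limma on TPM + 1 (0.0627). In the WT-labelled MUNC line the values were 0.538 and 0.795 CPM in GM and 2.14 and 0.641 CPM in DM, with overlapping groups (1.02 ± 0.50, adjusted p = 0.129). Without its DM replicate 1 that difference was -0.05. The 4 knockout-labelled DM libraries, at 14.4 to 36.6 CPM, stood apart from the other 12, at 0.417 to 2.23 CPM. Casq1, the calsequestrin of fast skeletal muscle, is given here although chosen after its values were seen: its highest library, of the knockout-labelled MUNC line in DM, held 1.43 CPM. The knockout-labelled DM libraries held 0.806 CPM or more and the WT-labelled DM libraries 0.299 CPM or less. By edgeR's quasi-likelihood test its rise from GM to DM was called in the knockout-labelled EV line alone (1.88 ± 0.68, adjusted p = 0.0443). In the knockout-labelled MUNC line it was 1.59 ± 0.63 (adjusted p = 0.0597). The 11 heart markers summed to 22.8 to 28.0 CPM in the WT-labelled EV DM libraries, 34.5 to 40.7 CPM in the WT-labelled MUNC ones, 38.4 to 39.3 CPM in the knockout-labelled EV ones and 43.1 to 53.8 CPM in the knockout-labelled MUNC ones, against 28.0 to 49.7 CPM in GM. Most of each sum came from Gata4, Nkx2-5 and Myl4, a myosin light chain of atrial and embryonic muscle. Myl4 was at 10.2 to 23.5 CPM in the knockout-labelled DM libraries and at 0.923 to 2.12 CPM in the other 12. Myh6, Myl7 and Ryr2 were at 0 to 0.23 CPM in every library. The part of these markers in the Casq2 values was not tested.

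**Figure D2:**
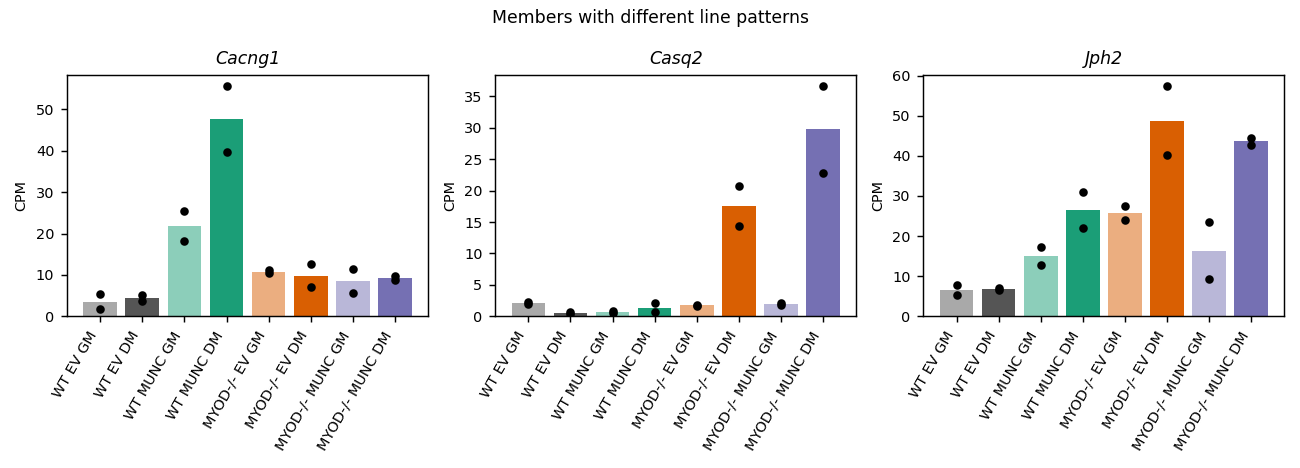
Level in CPM of Cacng1, Casq2 and Jph2 in the 8 groups, with bars for the group mean and points for the 2 libraries. Cacng1 is highest in the WT-labelled MUNC line in both media (18.1 to 55.7 CPM), Casq2 in the 2 knockout-labelled DM groups (14.4 to 36.6 CPM), and Jph2 is lowest in the WT-labelled EV line (5.34 to 7.84 CPM).

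Atp2a1 encodes SERCA1, the pump of fast skeletal muscle fibres, and Atp2a2 encodes SERCA2, the pump of slow and cardiac muscle and, in its long form, of most other cells. Atp2a1 rose in all 4 lines. Its GM libraries lay between 0.0542 and 0.616 CPM, with replicate 1 above replicate 2 in each of the 4 lines. In DM it was at 3.28 and 1.09 CPM in the WT-labelled EV line, 19.1 and 11.03 CPM in the WT-labelled MUNC line, 21.3 and 19.7 CPM in the knockout-labelled EV line and 32.2 and 21.1 CPM in the knockout-labelled MUNC line. Every DM library exceeded every GM library, and the WT-labelled EV DM libraries were the lowest of the 8. The log2 fold changes were 3.12 ± 0.81 (adjusted p = 0.0111), 6.42 ± 0.89 (adjusted p = 0.000251), 5.80 ± 0.85 (adjusted p = 0.000329) and 6.46 ± 0.86 (adjusted p = 0.000172) in that order of lines. These folds rest on low GM values. With 1 library left out they ranged over 2.11 to 3.83, 5.65 to 8.07, 4.98 to 7.33 and 5.77 to 7.90, the lowest and highest coming without DM replicate 1 and GM replicate 1 in the first line and without GM replicate 2 and GM replicate 1 in the others. In the WT-labelled EV line the adjusted p was 0.0859 without GM replicate 2 and 0.102 without DM replicate 1. The 3′ end of Atp2a1 overlaps Rabep2 on the opposite strand, which was at 11.5 to 20.6 CPM in the libraries, so fragments of the overlap could have been assigned to either.

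Atp2a2 was the member with the highest level, and it fell in all 4 lines. The WT-labelled EV line went from 517 and 534 CPM in GM to 269 and 328 CPM in DM, a log2 fold change of -0.81 ± 0.13 (adjusted p = 0.000705). The WT-labelled MUNC line went from 562 and 612 to 311 and 315 CPM (-0.91 ± 0.13, adjusted p = 0.000336). In the knockout-labelled lines it went from 601 and 697 to 465 and 494 CPM in the EV line (-0.44 ± 0.13, adjusted p = 0.0191) and from 641 and 749.9 to 468 and 490.0 CPM in the MUNC line (-0.54 ± 0.13, adjusted p = 0.00643). Every GM library stood above every DM library. The fall in the knockout-labelled EV line lost its call without GM replicate 2 (adjusted p = 0.0867), DM replicate 1 (0.105) or DM replicate 2 (0.0565), and with limma on TPM + 1 (0.161) or TPM + 0.1 (0.1698). The falls did not differ between the genotype labels by the test, with EV (difference of log2 fold changes 0.38 ± 0.18, adjusted p = 0.320) or with MUNC (0.37 ± 0.18, adjusted p = 0.500).

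Summed over both pumps, the share of TPM that came from Atp2a1 was 0.0119% to 0.138% in GM. In DM it was 1.62% and 0.442% in the WT-labelled EV line, 7.72% and 4.50% in the WT-labelled MUNC line, 5.87% and 5.12% in the knockout-labelled EV line and 8.51% and 5.54% in the knockout-labelled MUNC line. Atp2a2 was the higher of the pair in every library, by 10.75-fold or more.

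**Figure D3:**
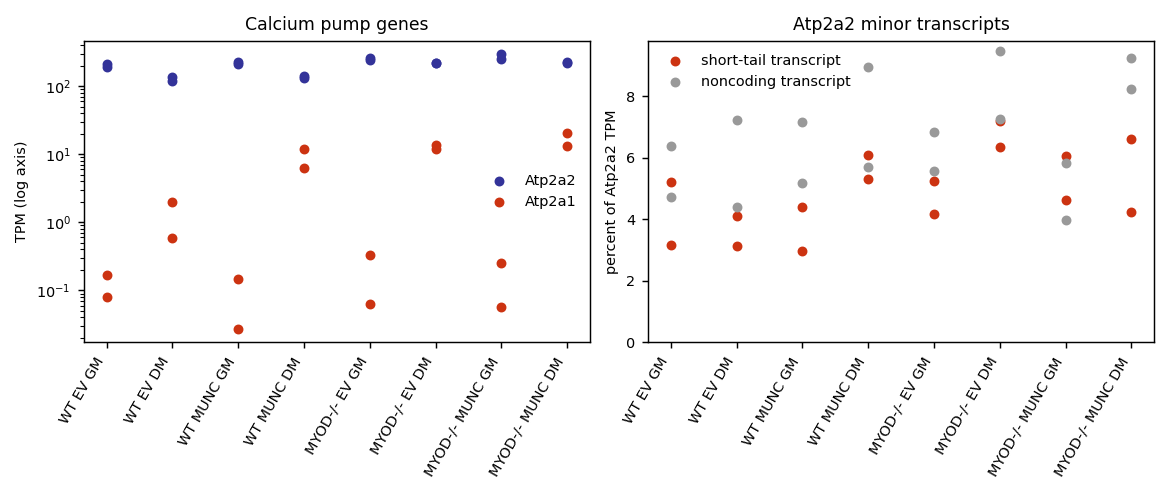
Left, TPM on a log axis of Atp2a2 and Atp2a1 in each library of the 8 groups; right, the short-tail and the noncoding transcript of Atp2a2 as a percent of the TPM of Atp2a2. Atp2a2 lies above Atp2a1 in every library, and the remaining share of Atp2a2, 84.2% to 91.5%, came from the long-tail transcript.

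Atp2a2 was counted as 3 transcripts, which the tables separate by their 3′ parts. Both coding transcripts share their first 2983 coding bases and then differ: the long-tail form, known as SERCA2b, has 152 bases of its own and 1044 codons, and the short-tail form, SERCA2a, known from heart and slow muscle, has 14 bases of its own and 998 codons. The ends of both reading frames are shown, since the assignment rests on them and on the untranslated parts behind them, with the last 30 shared bases in lower case and each form's own bases, stop codon included, in capitals (GRCm38, 5′ to 3′ on the minus strand of chr5).
SERCA2b coding end: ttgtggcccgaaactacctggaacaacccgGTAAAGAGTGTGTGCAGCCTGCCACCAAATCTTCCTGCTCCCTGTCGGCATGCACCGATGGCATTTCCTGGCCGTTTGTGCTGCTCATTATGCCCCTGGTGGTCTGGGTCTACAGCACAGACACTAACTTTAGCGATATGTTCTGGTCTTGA
SERCA2a coding end: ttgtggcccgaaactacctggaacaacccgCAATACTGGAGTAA
The long-tail transcript made up 84.2% to 91.5% of the TPM of Atp2a2 in every library, the short-tail transcript 2.96% to 7.21% and a noncoding transcript 3.97% to 9.48%. In GM the long-tail share was 89.0% to 90.5%. In DM it was 89.6% and 91.5% in the WT-labelled EV line, 85.8% and 88.2% in the WT-labelled MUNC line, 84.2% and 85.6% in the knockout-labelled EV line and 85.1% and 86.5% in the knockout-labelled MUNC line. The 6 DM libraries of the last 3 lines thus lay below every GM library, and the DM libraries of the WT-labelled EV line did not. These shares are estimates of kallisto and were not tested.

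Between the genotype labels, the members were nearly all higher in the knockout-labelled line where they differed. These comparisons use the same groups as those of differentiation and of the vector, so their values are not independent of each other. With EV in DM, 6 of 9 tested members were higher and 0 lower, where 31.4% of all genes were called (15.3% higher and 16.1% lower). Casq2 differed most (log2 fold change 4.96 ± 0.53, adjusted p = 8.28e-05), followed by Ryr1 (4.30 ± 0.34, adjusted p = 1.16e-05), Atp2a1 (3.22 ± 0.70, adjusted p = 0.00568) and Jph2 (2.83 ± 0.38, adjusted p = 0.000358). Cacnb1 (1.04 ± 0.28, adjusted p = 0.0171) and Atp2a2 (0.68 ± 0.13, adjusted p = 0.00272) differed less. Stac3 missed the threshold (1.05 ± 0.38, adjusted p = 0.0541), as did Cacng1 (1.14 ± 0.47, adjusted p = 0.0866) and Cacna1s (0.46 ± 0.69, adjusted p = 0.655). The Atp2a1 difference was 2.60 without WT-labelled EV DM replicate 2 (adjusted p = 0.0528) and 4.24 without DM replicate 1 of that group. Cacnb1 lost its call without that DM replicate 1 (0.65, adjusted p = 0.0965), without knockout-labelled EV DM replicate 1 (0.0563) or replicate 2 (0.0825), and when only these 4 libraries were fitted (0.0577). The skeletal marker sums and Myog moved the same way across these groups, as given above.

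With EV in GM, 2 members were called, both higher in the knockout-labelled line, where 10.4% of all genes were called (4.58% higher and 5.77% lower). Jph2 was at 23.9 and 27.4 CPM against 7.84 and 5.34 CPM (log2 fold change 1.96 ± 0.38, adjusted p = 0.00729, and 1.71 with adjusted p = 0.0747 without WT-labelled EV GM replicate 2). Ryr1 was at 0.616 and 0.576 CPM against 0.226 and 0.229 CPM (1.38 ± 0.40, adjusted p = 0.0489). The Ryr1 call was lost when any 1 of 10 libraries was left out (adjusted p = 0.0553 to 0.185), namely any EV library or either knockout-labelled MUNC DM library.

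Between the MUNC lines in GM, Ryr1 was the single member called, where 9.99% of genes were called (4.98% higher and 5.02% lower). It was higher in the knockout-labelled line by 3.57 ± 0.45 on the log2 scale (adjusted p = 0.000609), and by 2.86 without WT-labelled MUNC GM replicate 2 or 5.35 without replicate 1. It was not called when only these 4 libraries were fitted (adjusted p = 0.167) or with limma on TPM + 1 (0.420). Between the MUNC lines in DM, 4 members were higher and 1 lower, where 22.7% of genes were called (12.8% and 9.89%). The higher ones were Casq2 (4.46 ± 0.51, adjusted p = 0.000126), Cacna1s (2.68 ± 0.75, adjusted p = 0.0307), Ryr1 (2.35 ± 0.31, adjusted p = 0.000285) and Atp2a2 (0.62 ± 0.13, adjusted p = 0.00626). Cacng1 was lower, at -2.37 ± 0.48 (adjusted p = 0.00484, and 0.0524 without knockout-labelled MUNC DM replicate 2). The Casq2 difference was 3.796 without WT-labelled MUNC DM replicate 2 and 5.53 without replicate 1. The Cacna1s difference was 4.42 without WT-labelled MUNC DM replicate 1 and 1.81 without replicate 2 (adjusted p = 0.128), and it also lost its call without knockout-labelled MUNC DM replicate 1 (0.136) or replicate 2 (0.0605).

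In the WT-labelled line in DM, the MUNC vector went with higher levels of some members. There 4 of the 9 tested members were higher and 0 lower, where 33.3% of all genes were called (15.6% and 17.7%). Cacng1 was at 39.8 and 55.7 CPM with MUNC against 3.78 and 5.14 CPM with EV, a log2 fold change of 3.42 ± 0.50 (adjusted p = 0.00043). Atp2a1 (2.78 ± 0.69, adjusted p = 0.00993), Jph2 (1.96 ± 0.37, adjusted p = 0.00223) and Ryr1 (1.80 ± 0.31, adjusted p = 0.00120) were the others. Of the members not called by the same test, Casq2 (1.26 ± 0.50, adjusted p = 0.0734) and Cacnb1 (0.74 ± 0.28, adjusted p = 0.0632) were higher with MUNC. Atp2a2 (0.07 ± 0.13) and Stac3 (-0.06 ± 0.38) hardly differed. Cacna1s was lower with MUNC, at 0.766 and 0.124 CPM against 1.32 and 0.882 CPM (-1.39 ± 0.74, adjusted p = 0.180). Atp2a1 was at 3.79 without WT-labelled EV DM replicate 1, and it lost its call without replicate 2 of that group (2.14, adjusted p = 0.0846) or without WT-labelled MUNC DM replicate 1 (0.0633). In GM 1 member was higher and 1 lower, where 13.8% of genes were called (6.04% and 7.71%). Cacng1 was again higher with MUNC (2.62 ± 0.49, adjusted p = 0.00510; 3.63 without WT-labelled EV GM replicate 1), although not when only these 4 libraries were fitted (adjusted p = 0.0589). Ryr1 was lower with MUNC (-1.74 ± 0.51, adjusted p = 0.0444), from 0.226 and 0.229 CPM to 0.111 and 0.0181 CPM, and this rested on few counts. Its fold was -3.52 without WT-labelled MUNC GM replicate 1 and -1.002 without replicate 2, and its call was lost when any 1 of 13 libraries was left out (adjusted p = 0.0506 to 0.306), all except WT-labelled MUNC GM replicate 1 and both WT-labelled MUNC DM libraries. Casq2 lay at the threshold in the same comparison (-1.65 ± 0.50, adjusted p = 0.0501).

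In the knockout-labelled lines the MUNC vector gave no call. By edgeR's quasi-likelihood test 0 of 14972 genes (0%) were called in GM or in DM, with 191 and 152 genes at an unadjusted p under 0.05, none of them a member. DESeq2 and limma called 0 members in both. Deviations of same-numbered libraries from their group means correlated at 0.712 between the GM groups, and the main fit held no replicate term. Casq2 was at 36.6 and 22.9 CPM with MUNC and 20.8 and 14.4 CPM with EV in DM, ranges that did not overlap, with a log2 difference of 0.76 ± 0.44 (adjusted p = 1.00). The MUNC transcript itself was lower in these libraries than in the WT-labelled MUNC libraries, as given above. It was not called either, at 132 and 106 CPM with MUNC against 12.4 and 1.30 CPM with EV in GM. In DM it was at 43.0 and 50.4 CPM against 12.4 and 2.23 CPM. The lack of calls thus does not show that the vector had no effect in these lines.

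Whether differentiation changed a member by different amounts in 2 lines was tested as a difference of log2 fold changes. With EV, the change was larger in the knockout-labelled than in the WT-labelled line for Casq2 and Ryr1, 2 of 9 tested members, where 2.58% of all genes were called (1.66% higher and 0.922% lower). The difference was 5.22 ± 0.70 for Casq2 (adjusted p = 0.00512) and 2.92 ± 0.51 for Ryr1 (adjusted p = 0.0178). The Ryr1 call was lost when any 1 of 6 libraries was left out (adjusted p = 0.0581 to 0.0757), namely either WT-labelled EV GM library, WT-labelled EV DM replicate 2, knockout-labelled EV GM replicate 2 or either knockout-labelled EV DM library. For Jph2 the difference was 0.87 ± 0.51 (adjusted p = 0.417).

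**Figure D4:**
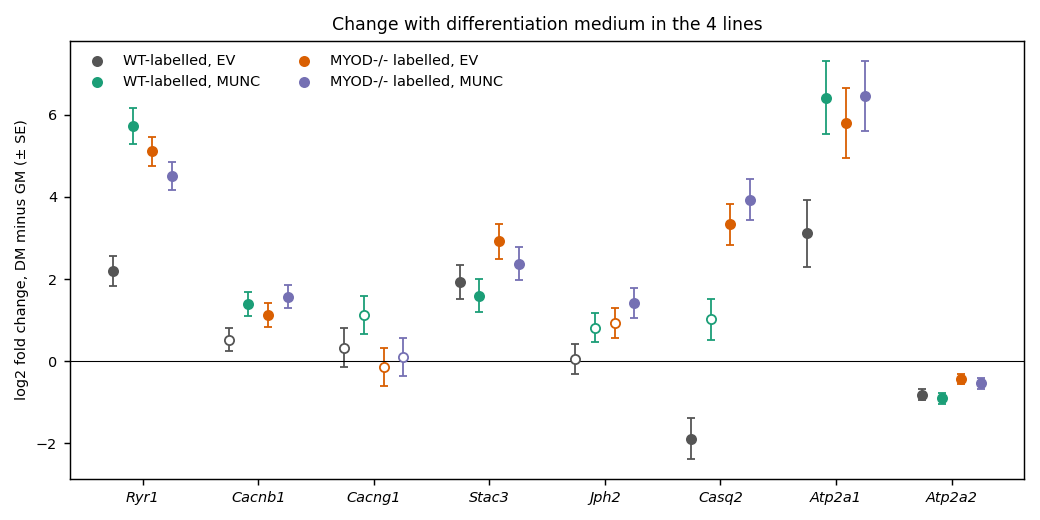
Log2 fold change from GM to DM with its SE in each of the 4 lines for 8 members; filled points have adjusted p under 0.05. Cacna1s, with 0 or 1 count in GM, and Ryr3, which was not tested, are left out. Ryr1 changes least in the WT-labelled EV line (2.19), and Casq2 falls there (-1.88) while it rises by 3.34 and 3.93 in the knockout-labelled lines.

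In the WT-labelled lines, the change with differentiation was larger with MUNC than with EV for Ryr1 (3.53 ± 0.59, adjusted p = 0.00851) and Casq2 (2.90 ± 0.70, adjusted p = 0.0495), where 3.33% of genes were called (1.24% higher and 2.09% lower). The Ryr1 difference was 2.74 without WT-labelled MUNC GM replicate 2 and 5.32 without replicate 1. It missed the threshold when only these 8 libraries were fitted (adjusted p = 0.0609) and with limma on TPM + 1 (0.0529). The Casq2 difference was at the threshold. Leaving out any library except WT-labelled MUNC DM replicate 2 ended its call (15 of 16, adjusted p = 0.0534 to 0.180), it was 1.83 without WT-labelled MUNC DM replicate 1, and it was 3.57 without replicate 2. DESeq2's size factors (adjusted p = 0.0528) and leaving out Zrsr1 (0.0527) also ended it. Between the MUNC lines 0 members passed, where 1.38% of genes were called (1.24% higher and 0.14% lower). The single member with an unadjusted p under 0.05 was Casq2, at 2.91 ± 0.69 (adjusted p = 0.0783). DESeq2 called 1 member there and limma on TPM 2. Between the vectors in the knockout-labelled lines 0 of 14972 genes (0%) passed, 114 genes had an unadjusted p under 0.05, none of them a member, and DESeq2 and limma called 0 members.

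Among the 7 members that rose in at least 1 line, Pearson's r over all 16 libraries ranged from 0.40 (Cacna1s with Jph2) to 0.92 (Atp2a1 with Stac3). On the log2 CPM scale used for all of these, r with Ryr1 was 0.92 for Cacnb1, 0.91 for Atp2a1, 0.88 for Stac3, 0.84 for Cacna1s, 0.78 for Casq2 and 0.69 for Jph2, against 0.10 for Cacng1 and -0.33 for Atp2a2. The libraries are grouped by medium and line, and each r describes mainly those groups. The 7 members were picked for rising from GM to DM in these same libraries, so positive r among them was largely fixed in advance. Outside the list, the 5 genes whose levels were most like those of Ryr1 over the same 16 libraries were Tanc2 (r = 0.987), Clip3 (0.979), Adamts7 (0.977), Zkscan5 (0.974) and Slc7a15 (0.965).

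Other genes of the same machinery came from a list of 105, covering triad and junction proteins, calcium channels, pumps and exchangers, store-operated entry and the excitability of the surface membrane. Of these, 102 were in the tables and 75 passed the filter. With differentiation 21 rose and 4 fell in the WT-labelled EV line, 32 and 3 in the WT-labelled MUNC line, 39 and 4 in the knockout-labelled EV line, and 37 and 3 in the knockout-labelled MUNC line. Over all tested genes the shares called higher and lower were 19.2% and 18.3%, 20.5% and 19.2%, 23.5% and 19.7%, and 24.4% and 20.4% in that order. Their median log2 fold changes were 0.32, 0.58, 0.69 and 0.80 in that order, against 0.02 to 0.08 for all genes. By sub-list, 15 of 25 triad and junction proteins rose and 2 fell in the knockout-labelled EV line, against 5 and 3 in the WT-labelled EV line. Of 8 store-operated entry genes, 6 rose in the former and 3 in the latter, and 0 fell in either. Of 14 pumps, exchangers and pump regulators, 8 rose and 1 fell in the former, against 4 and 0 in the latter. The 14 other channels had 5 higher against 4, and 0 lower in either. The 14 genes of surface excitability had 5 higher and 1 lower in both, with a median log2 fold change of 1.25 in the knockout-labelled and 1.52 in the WT-labelled EV line. The difference between the lines in these changes passed the test for 6 of the 75 genes with EV, all larger in the knockout-labelled line, where 2.58% of all genes were called (1.66% higher and 0.922% lower), and for 0 with MUNC. Between the vectors in the WT-labelled lines it passed for Clcn1 alone, the muscle chloride channel, named after its values were seen (-3.26, adjusted p = 0.0367), and leaving out any 1 of 9 libraries ended that call (adjusted p = 0.0514 to 0.144): both libraries of each WT-labelled GM group, WT-labelled EV DM replicate 2, both WT-labelled MUNC DM libraries and both knockout-labelled EV DM libraries. Its value was -2.49 without WT-labelled EV DM replicate 2.

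Among the 3 largest called rises in each line, Chrng, the gamma subunit of the fetal acetylcholine receptor, occurred in all 4. It went from 0.614 and 0.153 to 30.03 and 22.8 CPM in the WT-labelled EV line (6.06 ± 1.30, adjusted p = 0.00395) and from 4.12 and 0.326 to 89.5 and 133 CPM in the knockout-labelled EV line (5.66 ± 1.21, adjusted p = 0.00319). The changes in the MUNC lines were 6.58 ± 1.31, adjusted p = 0.00241 for the WT-labelled and 5.74 ± 1.21, adjusted p = 0.00284 for the knockout-labelled. With 1 library left out these 4 folds ranged over 5.42 to 7.42, 4.68 to 8.41, 5.66 to 9.54 and 4.81 to 8.97, the ends coming without GM replicate 2 and GM replicate 1 of each line. Trdn, which encodes triadin, the anchor of calsequestrin at the release channel, rose in the WT-labelled MUNC line (7.35 ± 1.99, adjusted p = 0.0127) and the knockout-labelled MUNC line (6.50 ± 1.87, adjusted p = 0.0153). Each of these calls was lost without that line's GM replicate 2 (adjusted p = 0.0845 and 0.0575), and the folds were 10.55 and 12.27 without its GM replicate 1. In the WT-labelled EV line Trdn was at 0.291 and 0.0381 CPM in GM and 20.7 and 1.74 CPM in DM (6.01 ± 2.14, adjusted p = 0.0453). Leaving out any 1 of 9 libraries ended that call (adjusted p = 0.0605 to 0.323): both WT-labelled EV GM libraries, WT-labelled EV DM replicate 1, and the WT-labelled MUNC, knockout-labelled EV and knockout-labelled MUNC DM libraries. The fold there lay between 3.32 without DM replicate 1 and 8.13 without GM replicate 1.

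Hrc, a calcium-binding protein of the sarcoplasmic reticulum, was at 6.38 and 7.54 CPM in the knockout-labelled EV DM libraries against 0.0803 and 0.150 CPM in GM (5.88 ± 0.57, adjusted p = 2.39e-05), and rose by 5.46 ± 0.53, adjusted p = 2.64e-05 in the knockout-labelled MUNC line (4.86 to 6.52 with its GM replicate 2 or replicate 1 left out). In the WT-labelled MUNC line it rose from 0.158 and 0.0903 to 1.77 and 1.42 CPM (3.64 ± 0.52, adjusted p = 0.000318), and in the WT-labelled EV line the difference was 1.32 ± 0.52, adjusted p = 0.0685.

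Among the largest falls, Fkbp1a, which binds ryanodine receptors, occurred in all 4 lines. Fkbp1a went from 323 to 394 CPM in the 8 GM libraries to 186 to 253 CPM in the 8 DM libraries, without overlap. The log2 fold changes were -0.81 ± 0.11, adjusted p = 0.000196 in the WT-labelled EV line and -0.62 ± 0.11, adjusted p = 0.00103 in the WT-labelled MUNC line, and -0.60 ± 0.11, adjusted p = 0.00106 and -0.61 ± 0.11, adjusted p = 0.00092 in the knockout-labelled EV and MUNC lines. Mcub, an inhibitory subunit of the mitochondrial calcium uniporter, fell in the knockout-labelled EV line (-0.96 ± 0.20, adjusted p = 0.00289) and in the knockout-labelled MUNC line (-0.80 ± 0.20, adjusted p = 0.00727; adjusted p = 0.0536 without DM replicate 2). Cacna1a, the pore of a neuronal calcium channel, fell in the WT-labelled MUNC line (-1.17 ± 0.36, adjusted p = 0.0231), lost without GM replicate 2 (0.104), DM replicate 1 (0.116) or DM replicate 2 (0.0760).

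Pln, which encodes phospholamban, the inhibitor of SERCA2, was chosen after its values were seen. It was at or below 0.535 CPM in GM. In DM it was at 0.0877 and 0.0136 CPM in the WT-labelled EV line, 0.903 and 0.727 in the WT-labelled MUNC line, 3.37 and 7.74 in the knockout-labelled EV line and 2.19 and 8.23 in the knockout-labelled MUNC line. The log2 fold change was 4.08 ± 0.86, adjusted p = 0.00285 in the knockout-labelled EV line, 4.99 ± 0.89, adjusted p = 0.00108 in the knockout-labelled MUNC line and 2.76 ± 0.90, adjusted p = 0.0313 in the WT-labelled MUNC line. The last call was lost without any 1 of that line's 4 libraries (adjusted p = 0.0673 to 0.132) and with limma on TPM + 1 (0.214). In the WT-labelled EV line the difference was 0.57 ± 1.40, adjusted p = 0.782. With 1 library left out the fold in the knockout-labelled EV and MUNC lines ranged over 3.30 to 5.45 (without GM replicate 2 and GM replicate 1) and 3.74 to 6.12 (without DM replicate 2 and GM replicate 1).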

How the data were processed

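The submitters' processing notes name bcl2fastq, kallisto and the mm10 genome (GRCm38), with no versions. The strand setting is not stated in the sources used here, and reads of overlapping genes on opposite strands could be assigned to either. The authors deposited 1 kallisto table per library with the estimated counts, effective length and TPM of each of 35818 RefSeq transcripts, per the file headers. Transcripts were given gene symbols with RefSeq (35487) or GENCODE M21 (193) tables, and 138 without a symbol, with 0.280% to 0.941% of the counts, were left out. Estimated counts and TPM were summed per symbol over 24497 genes, and counts were rounded. All 16 libraries were used, grouped by their labels.

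In R 4.3.3, edgeR 4.0.16 (TMM, filterByExpr, 14972 genes) was fitted with 8 group means to all libraries (8 residual degrees of freedom), and each comparison was tested by quasi-likelihood, with p-values adjusted by Benjamini-Hochberg over all tested genes and a threshold of 0.05. Fold changes are log2 with SE. Interactions are differences of log2 fold changes. The fit was tested on simulated data. These gave every gene the same spread and changed only genes with a mean of 5 CPM or more, so they do not bear on members below that level. Between replicates the chi-square over genes was 159 to 612 times its degrees of freedom, so none was a repeat deposit. Zrsr1, which separated the replicate numbers, was included and raised these values, so they do not describe the genes at large. Other settings tried were the Wald test of DESeq2 1.42.0, its size factors within edgeR, leaving low counts in, requiring 5 CPM in 2 libraries, limma 3.58.1 on log2(TPM + 1) and log2(TPM + 0.1), an effective length offset, Zrsr1 left out, a replicate block, only the libraries compared, and each library left out in turn. Likeness to Ryr1 used log2 CPM with a prior count of 2. Promoter windows are from RefSeq (GRCm38.p6), without chromosome 18, and coding ends from GENCODE M21; coordinates count from 1.

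The members and gene lists were chosen with earlier results of these data known. All 10 members are named in every comparison where they bear on it. Of the other listed genes, the 3 called with the largest change each way and a mean of at least 1 CPM are named per line, except some that are not reported here.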

Additional observations from a re-analysis of the deposited data

Results flagged for a closer look

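For 2 members the change with differentiation differed between lines by the test of the difference itself, with edgeR's quasi-likelihood test and Benjamini-Hochberg adjustment. Between the genotype labels with EV, the log2 fold change of Casq2 was larger in the knockout-labelled line by 5.22 ± 0.70 (SE; adjusted p = 0.00512), and that of Ryr1 by 2.92 ± 0.51 (adjusted p = 0.0178). The Ryr1 call there was lost when any 1 of 6 libraries was left out (adjusted p = 0.0581 to 0.0757). Between the vectors in the WT-labelled lines, the log2 fold change of Ryr1 was larger with MUNC by 3.53 ± 0.59 (adjusted p = 0.00851), and that of Casq2 by 2.90 ± 0.70 (adjusted p = 0.0495). The Casq2 call was at the threshold: leaving out any 1 of 15 of the 16 libraries ended it (adjusted p = 0.0534 to 0.180), and the value ranged over 1.83 to 3.57. Each compares 2 libraries per group, and all 4 differences use the same WT-labelled EV libraries.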

How the results depend on the processing

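Over 125 gene-by-comparison values computed for the members and other listed genes, the alternatives other than leaving out a library gave 1236 values, of which 1146 kept direction and side of the threshold, 33 lost the call, 53 gained one and 4 reversed. Member values entered if they were called, compared DM with GM within a line or exceeded their SE, so most small uncalled differences were left out. Values with 3 counts or fewer in a compared group were also left out, among them Cacna1s with differentiation. Its rise in the WT-labelled MUNC line lost its call with limma on TPM + 1 (adjusted p = 0.277). Leaving out each library in turn gave 2000 values, with 1865 kept, 99 lost, 29 gained and 7 reversed. The reversed values were all of differences not called in the main analysis. Cacng1 with differentiation in the knockout-labelled EV line was 0.0572 and 0.0581 with limma on TPM + 1 and TPM + 0.1. Ryr1 in the difference between the MUNC lines was 1.15 and 1.39 with limma at the same pseudocounts, and the cause was not tested. On TPM + 0.1 the median of all genes moved by 0.064 in that comparison and by up to 0.24 (differentiation, knockout-labelled MUNC). With 1 library left out, the values that changed sign ranged over -0.25 to 1.34 (Cacng1, differentiation, WT-labelled EV), -0.198 to 0.36 (Jph2, the same), -0.59 to 0.21 (Cacng1, knockout-labelled EV), -0.0507 to 1.68 (Casq2, WT-labelled MUNC), -0.34 to 0.70 (Cacng1, knockout-labelled MUNC) and -0.211 to 1.38 (Cacng1, differentiation by vector, WT-labelled).

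The number of members called moved by over 1.5 times as follows. Genotype label, MUNC, GM (1 in the main analysis): 3 with DESeq2, 0 with limma on TPM + 1, and 0 with only the libraries compared. MUNC against EV, WT-labelled, GM (2): 4 with DESeq2, 4 without a filter, 1 with limma at either pseudocount, 0 with only the libraries compared, and 4 with the replicate block. Genotype label, EV, GM (2): 1 with only the libraries compared. Differentiation by genotype label, MUNC (0): 1 with DESeq2, 1 without a filter, 2 with limma at either pseudocount, and 1 with the replicate block. Differentiation by vector, WT-labelled (2): 1 with DESeq2's size factors, 1 with limma at either pseudocount, 1 without Zrsr1, and 0 with only the libraries compared. The cause was not tested. Member counts at settings other than the main one, here and elsewhere, stand without the share of all genes called at that setting. A setting that calls more or fewer genes of every kind thus cannot be told from a change in the members.

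With 1 library left out, the number of members called ranged over 4 to 6 (differentiation, WT-labelled EV), 6 to 8 (knockout-labelled EV), 4 to 8 (WT-labelled MUNC), 0 to 3 (genotype label, EV, GM), 5 to 7 (EV, DM), 1 to 2 (MUNC, GM), 3 to 6 (MUNC, DM), 1 to 3 (MUNC vector, WT-labelled, GM), 4 to 5 (WT-labelled, DM), 1 to 2 (differentiation by genotype label, EV), 0 to 1 (the same, MUNC) and 1 to 2 (differentiation by vector, WT-labelled). Leaving out a library leaves 1 in its group, which is then assumed to vary like the other groups.

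The replicate numbers share no batch in the labels. The deviations of same-numbered libraries correlated at 0.0891 (differentiation, knockout-labelled MUNC) to 0.712 (MUNC against EV, knockout-labelled, GM). The replicate block gave 6, 7, 6 and 8 members for differentiation in the WT-labelled EV, knockout-labelled EV, WT-labelled MUNC and knockout-labelled MUNC lines. Depth limits Ryr3 in all groups and Cacna1s in GM.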
